A study of Homo sapiens with 18 samples.

Results

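The genes described here are the subunits of the transcription factor NF-kB and a set of its feedback targets: NFKB1, NFKB2, RELA, RELB and REL, which encode the subunits, NFKBIA and NFKBIE, which encode inhibitors of the factor, and TNFAIP3, BIRC3 and TRAF1, which encode signalling proteins. They were chosen by name, with earlier results of these data known, from a table of 17017 genes, and all 10 were present. The cells were MDA-MB-231, an established human line of triple-negative breast carcinoma, transduced with lentiviral particles that carried either a scramble control (SC) or 1 of 2 short hairpin RNAs against fibrillarin (SH2 and SH3). Fibrillarin, gene FBL, is the methyltransferase that places 2'-O-methyl groups on ribosomal RNA. All groups, controls included, went through puromycin at 1 µg/ml for 96 h and then cycloheximide at 100 µg/ml for 5 min before lysis. No isolation of clones is described in the labels, and they leave it unsaid whether SH2 is knockdown 1 or 2, so the label names are kept. Each treatment had 3 libraries of input cytoplasmic RNA and 3 of ribosome-protected footprints, 18 libraries in all. The labels do not say whether replicates were separate cultures, so the p-values measure the spread between these libraries, which may be technical.

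NF-kB factors are dimers of related subunits and are held inactive in the cytoplasm by inhibitor proteins. In the canonical pathway, signals from receptors for tumour necrosis factor or interleukin 1, or from toll-like receptors, lead a kinase complex to mark the inhibitors for degradation, and RELA-containing dimers enter the nucleus. In the non-canonical pathway, the kinase encoded by MAP3K14 leads to processing of the NFKB2 product, which frees RELB-containing dimers. Both arms are known for feedback: the factor activates the genes of several of its own subunits, its inhibitors and the enzymes that switch off the upstream signal.

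Binding sites for the factor are known from the promoters of several of these genes, so the promoter windows are shown first. Windows of 300 bases, from 250 before to 50 after each annotated start, came from RefSeq (GRCh38.p14). For 8 of the 10 genes there were 14 windows; RELB and NFKBIE had no entry. The NF-kB consensus site was searched on both strands. It was found in 6 of the 8 genes, NFKB1, NFKB2, REL, NFKBIA, TNFAIP3 and BIRC3 (75%), and in 931 of the 10300 genes tested in RNA that had a window (9.04%). Counted by window, 7 of 14 held it, against 6.79% of the 15123 windows of genes tested in RNA and 5.91% of all 35116 windows. The windows of RELA and TRAF1 did not hold these letters. The sequences below show a gene whose RNA rose in both hairpins (NFKB2, with a match in 2 of its 3 windows), the target with the largest RNA rise in SH2 (BIRC3), the main inhibitor (NFKBIA) and the subunit gene whose RNA did not change detectably (REL). Each runs 5′ to 3′ on the strand of the gene, and capitals mark the match, including matches that overlap or lie on the opposite strand.
NFKB2, chr10:102394328-102394627, plus strand: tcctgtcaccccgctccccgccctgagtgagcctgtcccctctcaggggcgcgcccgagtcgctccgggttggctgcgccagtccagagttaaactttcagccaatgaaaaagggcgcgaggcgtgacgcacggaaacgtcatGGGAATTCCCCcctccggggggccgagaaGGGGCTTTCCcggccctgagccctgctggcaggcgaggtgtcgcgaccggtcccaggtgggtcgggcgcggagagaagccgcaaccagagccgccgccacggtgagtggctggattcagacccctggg
NFKB2, chr10:102395455-102395754, plus strand: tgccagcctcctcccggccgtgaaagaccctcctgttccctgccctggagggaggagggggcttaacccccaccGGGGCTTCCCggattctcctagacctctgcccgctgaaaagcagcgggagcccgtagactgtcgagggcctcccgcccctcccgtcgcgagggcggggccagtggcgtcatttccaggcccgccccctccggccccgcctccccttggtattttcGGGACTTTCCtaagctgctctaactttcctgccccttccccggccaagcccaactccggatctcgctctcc
BIRC3, chr11:102317234-102317533, plus strand: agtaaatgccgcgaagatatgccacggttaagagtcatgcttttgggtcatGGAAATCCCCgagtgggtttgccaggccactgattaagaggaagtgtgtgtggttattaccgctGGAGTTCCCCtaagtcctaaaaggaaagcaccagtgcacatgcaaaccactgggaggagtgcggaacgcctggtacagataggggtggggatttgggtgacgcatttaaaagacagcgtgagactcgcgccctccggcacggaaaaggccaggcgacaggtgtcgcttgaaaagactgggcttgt
NFKBIA, chr14:35404700-35404999, minus strand: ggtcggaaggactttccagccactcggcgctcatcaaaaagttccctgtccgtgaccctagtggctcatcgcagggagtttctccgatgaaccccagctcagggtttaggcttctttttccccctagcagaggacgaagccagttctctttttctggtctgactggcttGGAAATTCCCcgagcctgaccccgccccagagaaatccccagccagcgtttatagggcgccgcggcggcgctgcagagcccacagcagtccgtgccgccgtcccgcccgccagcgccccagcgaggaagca
REL, chr2:60881324-60881623, plus strand: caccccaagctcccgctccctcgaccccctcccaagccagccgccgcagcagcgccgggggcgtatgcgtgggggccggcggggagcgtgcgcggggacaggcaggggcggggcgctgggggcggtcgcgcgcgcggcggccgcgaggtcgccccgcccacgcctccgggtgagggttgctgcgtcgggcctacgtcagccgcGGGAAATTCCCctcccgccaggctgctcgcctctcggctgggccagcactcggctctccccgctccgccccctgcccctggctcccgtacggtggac

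Counted from the annotated start as position 0, the NFKBIA match began at position -81 and the REL matches at -47 and -46, where a single stretch reads as a match on both strands. In BIRC3 the matches lay at -199 and -135, both on the opposite strand. In NFKB1 the match GGGAATTTCC began at -49, and TNFAIP3 had GGGACTTTCC at -67 and GGGGATTTCC at -55, both on the opposite strand. Among the other genes of the pathway, a match was present in 14 of 28 other response genes with a window (50%), in 6 of 12 inhibitors and deubiquitinases (50%), in 2 of 19 signalling genes (10.5%) and in 2 of 15 receptors and ligands (13.3%). REL carried matches and was not called in RNA, while TRAF1 carried none in these windows and was called higher in both hairpins, as given below. A match is a description of letters, and binding was not measured.

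RNA libraries held 23469830 to 27629488 counts and footprint libraries 1662705 to 6098648, with the SC footprint libraries the deepest on average (4790944 against 3424210 in SH2 and 2421550 in SH3). Levels are given as CPM, which are counts scaled to a common library size, with TMM factors within each kind of library. FBL RNA was left at 1.46% of SC in SH2 and 0.898% in SH3, and its footprints at 4.70% and 2.09%. Within SH2, replicate 3 had the most FBL left, 11.2 CPM of RNA against 1.26 and 4.52 in replicates 1 and 2. Markers of the line were abundant in every RNA library (VIM at 4081 to 7223 CPM), and 6 luminal markers summed to 88.5 to 114 CPM, with ERBB2 at 79.2 to 104 CPM, GATA3 at 7.62 to 13.2 CPM and ESR1 and PGR at or near 0. Blood cell markers, 4 of them, summed to 2.91 to 5.49 CPM. Fibroblast and endothelial markers, 5 of them, summed to 5.59 to 7.17 CPM in SC. The sums were 9.60 to 11.1 CPM with SH2 and 6.90 to 7.68 CPM with SH3. The largest difference was that of PDGFRB, which averaged 2.59 CPM (SC), 6.17 (SH2) and 5.06 (SH3). PECAM1 averaged 2.65, 3.14 and 1.67 CPM in that order. LUM, VWF and CDH5 had lower means with either hairpin than with the scramble. The part of these markers in the results was not tested. RNA and footprint libraries of 1 number did not always deviate from their group means together. In SC and in SH2, RNA library 1 went with footprint library 2 (r = 0.58 and 0.57 across genes) and not with footprint library 1 (r = -0.50 and -0.31). Ratios of footprints to RNA are therefore given from group means and not per library.

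In RNA, NF-kB genes were higher in both hairpins. Against SC, 9 of the 10 passed the test as higher in SH2 and 8 in SH3, and 0 passed as lower. The test was edgeR's quasi-likelihood test with Benjamini-Hochberg adjustment over all genes tested, and a gene counts as called at an adjusted p under 0.05. Among all 12710 genes tested, 31.1% were called higher in SH2 and 27.8% in SH3 (30.4% and 25.2% lower, 61.4% and 53% in either direction). The median log2 change over the 10 genes was 1.09 in SH2 and 0.93 in SH3, beside 0.012 and 0.034 over all genes tested. The largest log2 changes were those of RELB and BIRC3, and REL stayed apart from the others. SH2 and SH3 were set against the same 3 SC libraries, so the 2 comparisons are not independent. The 10 genes were chosen with earlier results of these data known, so their counts are no independent test of the group. In bulk RNA, a change in the share of cells that express a gene and a change per cell cannot be told apart.

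**Figure D1:**
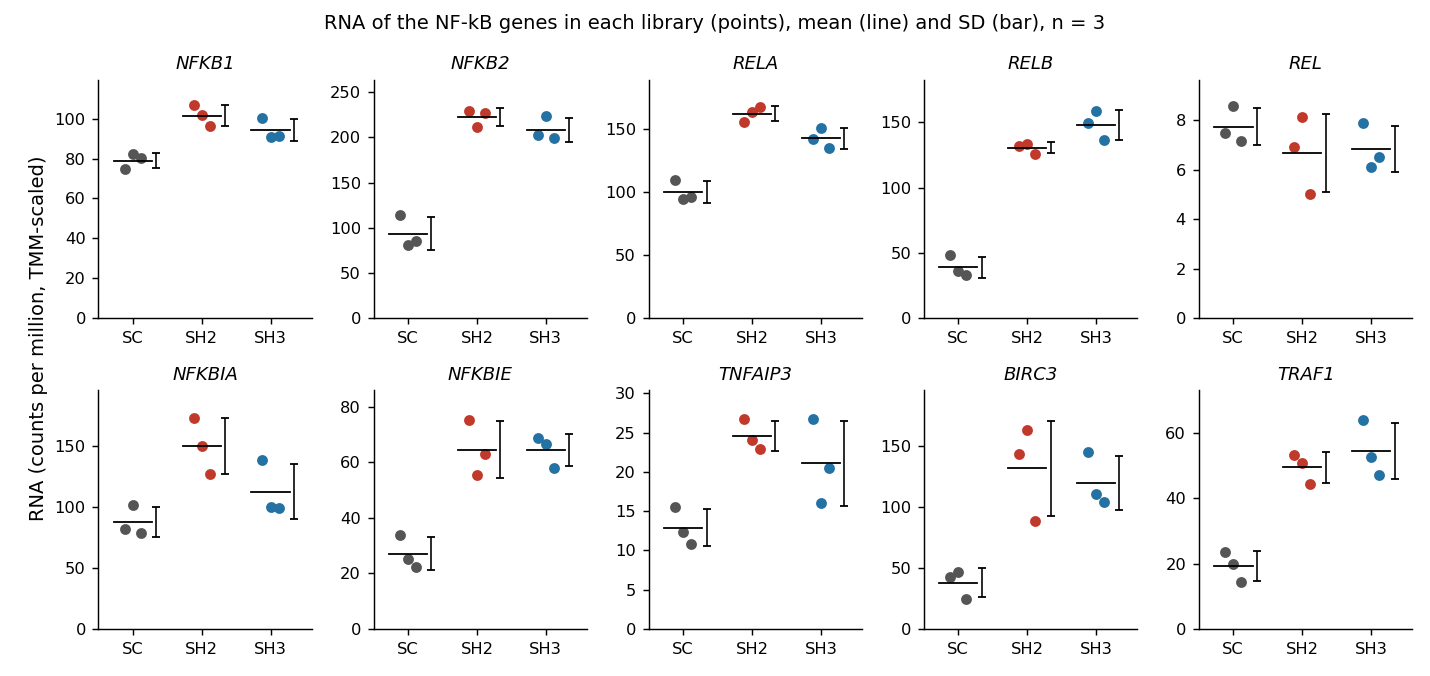
RNA level (y axis, TMM-scaled CPM, from 0) of each of the 10 genes in the 9 RNA libraries, by treatment (x axis). Points are libraries, horizontal lines the group means and vertical bars the SD (n = 3). For NFKB2, RELB, TRAF1 and BIRC3 every hairpin library lies above every SC library, while for REL the groups overlap.

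Among the 5 subunits, the non-canonical ones changed most. NFKB2 encodes a precursor that is processed into a DNA-binding subunit. Its RNA stood at 114, 80.8 and 85.4 CPM in SC replicates 1 to 3, at 229, 211 and 227 CPM in SH2 and at 202, 224 and 199 CPM in SH3. All 6 hairpin libraries were above all 3 SC libraries, and the means were 2.38-fold and 2.23-fold that of SC, with log2 changes of 1.25 ± 0.12 (SE; adjusted p = 1.33e-06, edgeR) and 1.16 ± 0.12 (adjusted p = 4.97e-06, edgeR). RELB encodes the subunit that pairs with the processed NFKB2 product. Its RNA was 48.2, 36.1 and 33.1 CPM in SC, 132, 134 and 126 CPM in SH2 and 149, 159 and 136 CPM in SH3. Again no hairpin library fell into the SC range, and the fold over SC was 3.33 in SH2 and 3.78 in SH3, with log2 changes of 1.74 ± 0.13 and 1.92 ± 0.13 (SE; adjusted p = 1.31e-07 and 1.67e-07, edgeR). Of all genes tested, 97.9% had a lower log2 change than RELB in SH2 and 99.2% in SH3.

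The subunits of the canonical pathway moved less. RELA encodes the main activating subunit. RELA RNA was 109, 94.1 and 95.7 CPM in SC, 155, 163 and 167 CPM in SH2 and 141, 151 and 135 CPM in SH3. The groups did not overlap, and the log2 changes were 0.70 ± 0.09 in SH2 (SE; adjusted p = 1.87e-05, edgeR) and 0.51 ± 0.09 in SH3 (adjusted p = 0.000370, edgeR). NFKB1 encodes the precursor of RELA's usual partner. Its RNA was 74.6, 82.1 and 80.2 CPM in SC, 107, 102 and 96.1 CPM in SH2 and 100.4, 91.0 and 91.2 CPM in SH3, with all hairpin libraries above the SC range. Its log2 change was 0.36 ± 0.09 in SH2 (SE; adjusted p = 0.00297, edgeR) and 0.25 ± 0.09 in SH3 (adjusted p = 0.0277, edgeR), the smallest of the called changes. The SH3 call was lost when any 1 of SC replicate 1, SC replicate 3 or SH3 replicates 1, 2 and 3 was left out, with log2 changes of 0.20, 0.26, 0.17, 0.25 and 0.25 in that order and adjusted p-values from 0.0669 to 0.20.

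REL encodes the remaining subunit, best known from lymphocytes. REL RNA was low, at 7.47, 8.57 and 7.16 CPM in SC, 6.90, 8.13 and 5.01 CPM in SH2 and 7.88, 6.08 and 6.51 CPM in SH3. The 3 groups overlapped. The log2 changes of -0.21 ± 0.18 (SE; adjusted p = 0.327, edgeR) and -0.18 ± 0.18 (adjusted p = 0.429, edgeR) did not pass the test, and the sign was negative in both hairpins under each alternative tried.

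Of the inhibitor genes, NFKBIE was called higher in both hairpins and NFKBIA in SH2 alone, with a difference between the hairpins for NFKBIA. NFKBIA encodes IkB alpha, the inhibitor that is degraded and made anew in the canonical response. NFKBIA RNA was 82.2, 102 and 78.5 CPM in SC, 173, 149.9 and 127 CPM in SH2 and 138, 100.2 and 98.8 CPM in SH3. SH2 lay wholly above SC, with a log2 change of 0.78 ± 0.15 (SE; adjusted p = 0.000464, edgeR), whereas SH3 overlapped SC. The SH3 change of 0.36 ± 0.15 had an edgeR adjusted p of 0.0544, and without SC replicate 2, the highest of the controls, it was 0.48 with an adjusted p of 0.0195. Without SH3 replicate 1, the highest of the SH3 libraries, it was 0.15 with an adjusted p of 0.416. Set directly against each other, SH2 was higher than SH3 by 0.42 ± 0.15 on the log2 scale (adjusted p = 0.0389, edgeR). It was the only one of the 10 genes called between the hairpins in RNA, where 39.3% of all genes tested were called. That call was lost without SH2 replicate 1, SH2 replicate 2, SH3 replicate 2 or SH3 replicate 3, with differences of 0.30, 0.44, 0.35 and 0.34 and adjusted p-values from 0.0631 to 0.153. For the other 9 genes the difference between hairpins ran from -0.18 upward and did not pass.

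NFKBIE encodes IkB epsilon, a further inhibitor with a slower feedback. NFKBIE RNA was 33.7, 25.0 and 22.3 CPM in SC, 75.3, 55.3 and 63.1 CPM in SH2 and 68.7, 66.5 and 57.9 CPM in SH3. Every hairpin library was above every control, at 2.39-fold (SH2) and 2.38-fold (SH3) of the SC mean. The log2 changes were 1.26 ± 0.15 and 1.25 ± 0.15 (SE; adjusted p = 8.99e-06 and 1.65e-05, edgeR).

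Among the target genes, BIRC3 encodes a ubiquitin ligase that restrains MAP3K14 and protects from cell death. BIRC3 RNA was 42.2, 46.8 and 24.7 CPM in SC, 144, 163 and 88.1 CPM in SH2 and 145, 111 and 104 CPM in SH3. The groups did not overlap although the libraries of a group were far apart, SH2 replicate 3 being the lowest of the hairpin libraries. The log2 changes were 1.79 ± 0.24 in SH2 (SE; adjusted p = 2.08e-05, edgeR) and 1.66 ± 0.24 in SH3 (adjusted p = 6.58e-05, edgeR). TRAF1 encodes an adaptor of the tumour necrosis factor receptors. TRAF1 RNA was 23.6, 19.9 and 14.2 CPM in SC, 53.2, 50.9 and 44.2 CPM in SH2 and 63.9, 52.5 and 47.1 CPM in SH3, again with no overlap. Its log2 changes were 1.36 ± 0.16 and 1.50 ± 0.17 (SE; adjusted p = 9.05e-06 and 7.25e-06, edgeR).

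TNFAIP3 encodes A20, the ubiquitin-editing enzyme that switches off the upstream kinase complex. TNFAIP3 RNA was 15.5, 12.3 and 10.9 CPM in SC, 26.7, 24.0 and 23.0 CPM in SH2 and 26.8, 16.0 and 20.5 CPM in SH3. Both hairpin groups lay above SC, and SH3 replicate 2 was just above the highest control. The log2 changes were 0.93 ± 0.18 (SE; adjusted p = 0.000422, edgeR) and 0.71 ± 0.18 (adjusted p = 0.00390, edgeR).

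Spread within the groups had a common pattern. In SC, SH2 and SH3 alike, RNA library 3 was the lowest of its group for 7 of the 10 genes, and library 1 the highest for 6, 6 and 7. This order was not counted over all genes tested, so it may not be particular to these 10. In SH2, library 3 is the one with the most FBL left. Without SH2 replicate 3, 9 genes were still called higher in SH2, and the BIRC3 log2 change was 1.99; the part of the remaining FBL in the spread was not tested. All 3 SH2 libraries stood above all 3 SC libraries for 9 of the 10 genes, where 32.5% of all genes tested did so, and all 3 SH3 libraries for 8, where 33.3% did so.

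Ratios of pairs of genes within a library do not depend on the scaling between libraries. Counts are not per length, so only the change of a ratio is read here. The ratio of NFKB2 to NFKB1 RNA counts was 0.984 to 1.53 in SC, 2.08 to 2.36 in SH2 and 2.01 to 2.46 in SH3. The ratio of RELB to RELA was 0.346 to 0.441 in SC, 0.755 to 0.853 in SH2 and 1.01 to 1.06 in SH3, so the 3 groups were separate. RNA of the non-canonical subunits thus gained on that of the canonical ones in each of the 6 hairpin libraries. In contrast, NFKBIA to RELA was 0.751 to 1.08 in SC, 0.763 to 1.11 in SH2 and 0.666 to 0.977 in SH3, and the ranges overlapped. NFKBIE to NFKBIA ran from 0.246 to 0.410 in SC, 0.369 to 0.496 in SH2 and 0.497 to 0.664 in SH3, with SC and SH2 overlapping. Footprints gave separate groups for NFKB2 to NFKB1 (1.17 to 1.73, 2.22 to 2.54 and 3.02 to 3.89) and, for RELB to RELA, a range of 0.0724 to 0.113 in SC below 0.130 to 0.171 in SH2 and 0.151 to 0.214 in SH3. With 3 libraries against 3, an exact permutation test cannot give a two-sided p below 0.1, so no p is given for the ratios.

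**Figure D2:**
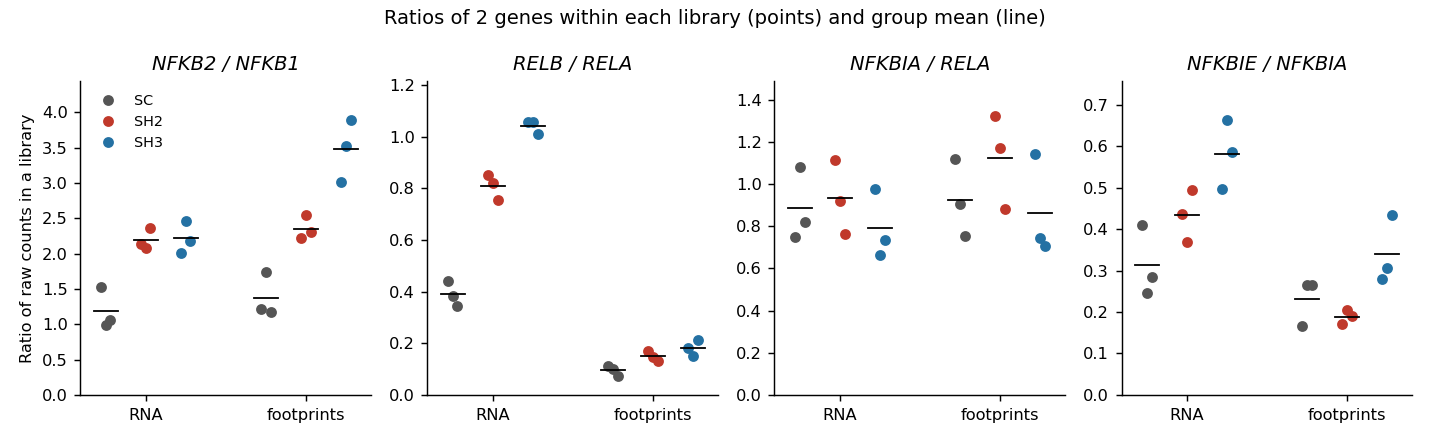
Ratio of the raw counts of 2 genes in the same library (y axis, from 0, no unit) for RNA and footprint libraries (x axis), coloured by treatment; points are libraries and lines group means (n = 3). NFKB2 to NFKB1 and RELB to RELA are higher in every hairpin library than in any SC library of the same kind, and NFKBIA to RELA overlaps between groups.

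Ribosome footprints, the fragments protected by ribosomes on the mRNA, followed with fewer calls. Against SC, 8 of the 10 genes were called higher in SH2 and 6 in SH3, and 0 lower. Of the 10345 genes tested in footprints, 21% were called higher in SH2 and 16.9% in SH3 (23.2% and 19% lower, 44.2% and 35.9% in either direction). The median log2 change over the 10 genes was 0.89 in SH2 and 0.92 in SH3, beside -0.0042 and -0.014 over all genes tested. NFKB1 and REL were not called in either hairpin, and NFKBIA and TNFAIP3 not in SH3. All 3 hairpin libraries stood above all 3 SC libraries for 10 of 10 genes in SH2 and for 6 in SH3, where 25% and 22.5% of all genes did so.

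**Figure D3:**
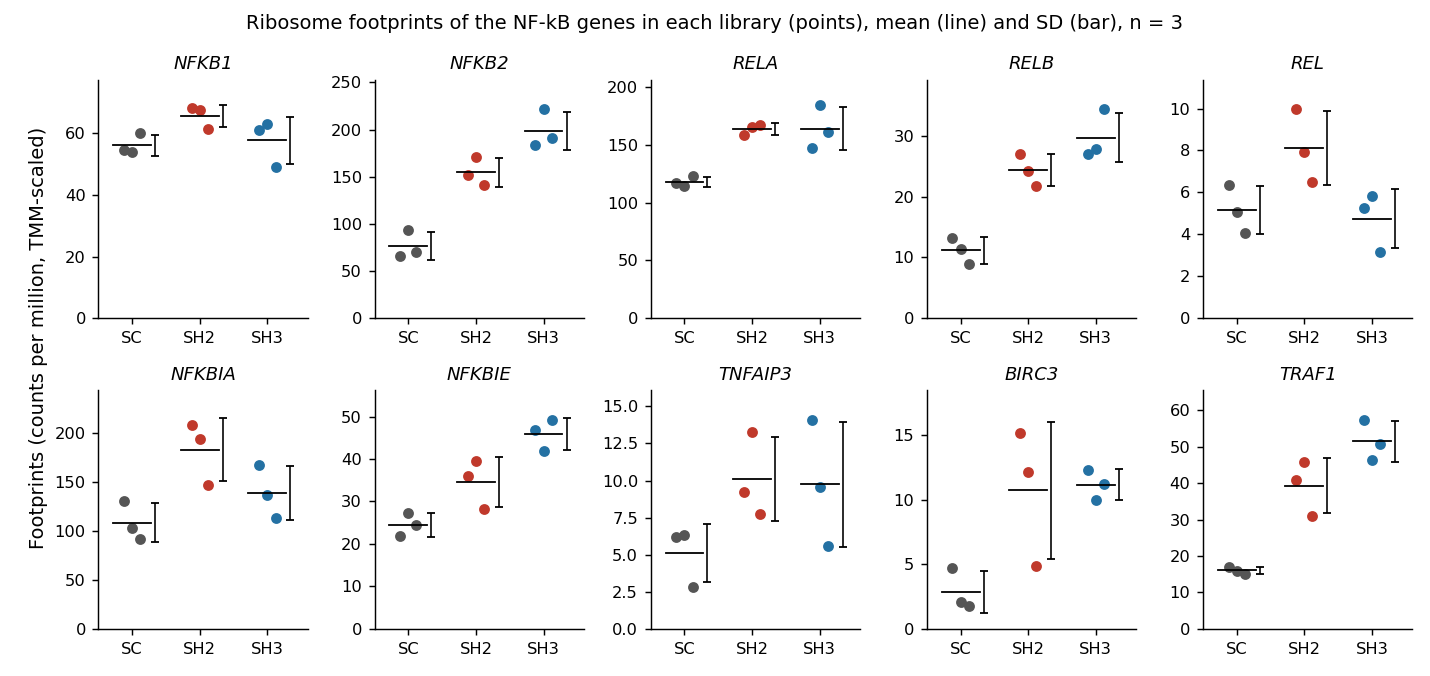
Footprint level (y axis, TMM-scaled CPM, from 0) of each of the 10 genes in the 9 footprint libraries, by treatment (x axis). Points are libraries, horizontal lines group means and vertical bars the SD (n = 3). NFKB2, RELB and TRAF1 are above the SC range in all 6 hairpin libraries, and the BIRC3 libraries of SH2 run from 4.86 to 15.2 CPM.

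NFKB2 footprints were 66.4, 93.5 and 70.1 CPM in SC, 151, 171 and 141 CPM in SH2 and 184, 222 and 191 CPM in SH3. The hairpin libraries lay apart from SC, with log2 changes of 1.03 ± 0.15 (SE; adjusted p = 8.20e-05, edgeR) and 1.39 ± 0.16 (adjusted p = 1.20e-05, edgeR). RELB footprints were 13.2, 11.4 and 8.88 CPM in SC, 27.0, 24.2 and 21.7 CPM in SH2 and 26.9, 27.7 and 34.4 CPM in SH3. Their log2 changes, 1.12 ± 0.21 and 1.42 ± 0.21 (SE; adjusted p = 0.000450 and 0.000109, edgeR), were smaller in both hairpins than those of RELB RNA. RELA footprints were 117, 114 and 123 CPM in the controls, 158, 165 and 167 CPM in SH2 and 147, 184 and 161 CPM in SH3. The RELA log2 change was 0.47 ± 0.13 in SH2 (SE; adjusted p = 0.00746, edgeR) and 0.48 ± 0.13 in SH3 (adjusted p = 0.00950, edgeR), and without SH3 replicate 2, the highest library, the latter was 0.39 with an adjusted p of 0.0636. NFKB1 footprints, at 54.4, 53.9 and 60.0 CPM in SC, 68.1, 67.4 and 61.5 CPM in SH2 and 60.9, 63.0 and 49.1 CPM in SH3, did not pass the test. Their log2 changes were 0.22 ± 0.14 and 0.03 ± 0.15 (SE; adjusted p = 0.220 and 0.882, edgeR).

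REL had few footprint reads, 9 to 39 counts per library. REL footprints were 6.33, 5.06 and 4.08 CPM in SC, 10.0, 7.93 and 6.47 CPM in SH2 and 5.27, 5.82 and 3.16 CPM in SH3. SH2 lay just above the SC range, and SH3 overlapped it. The log2 changes of 0.63 ± 0.30 in SH2 (SE; adjusted p = 0.0985, edgeR) and -0.14 ± 0.34 in SH3 (adjusted p = 0.774, edgeR) were not called.

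For the inhibitors, NFKBIA footprints were 131, 103 and 92.3 CPM in SC, 209, 194 and 147 CPM in SH2 and 168, 137 and 113 CPM in SH3. SH2 was above SC and was called, with a log2 change of 0.75 ± 0.18 (SE; adjusted p = 0.00304, edgeR), and SH3 overlapped SC at 0.35 ± 0.18 (adjusted p = 0.147, edgeR). Without SC replicate 1, the highest control, the SH3 change was 0.52 with an adjusted p of 0.0328, and without SH3 replicate 1, the highest SH3 library, it was 0.21 with an adjusted p of 0.428. NFKBIE footprints were 21.8, 27.4 and 24.5 CPM in SC, 35.9, 39.6 and 28.2 CPM in SH2 and 46.8, 41.8 and 49.1 CPM in SH3. Their log2 changes were 0.51 ± 0.18 in SH2 (SE; adjusted p = 0.0282, edgeR) and 0.92 ± 0.18 in SH3 (adjusted p = 0.00106, edgeR). In SH2 the call was lost without SC replicate 1, SC replicate 3, SH2 replicate 1 or SH2 replicate 2, where the change was 0.44, 0.53, 0.50 and 0.41 and the adjusted p lay between 0.0620 and 0.129.

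For the targets, TRAF1 footprints were 17.0, 16.0 and 15.1 CPM in SC, 40.7, 45.9 and 31.1 CPM in SH2 and 57.4, 46.2 and 50.8 CPM in SH3. The log2 changes were 1.29 ± 0.19 and 1.67 ± 0.19 (SE; adjusted p = 5.50e-05 and 1.22e-05, edgeR), with no overlap between hairpins and SC. BIRC3 had only 5 to 52 footprint counts per library. BIRC3 footprints were 4.71, 2.11 and 1.78 CPM in SC, 15.2, 12.1 and 4.86 CPM in SH2 and 12.3, 9.93 and 11.2 CPM in SH3. SH2 replicate 3 reached only just above SC replicate 1, and the log2 changes were 1.80 ± 0.41 in SH2 (SE; adjusted p = 0.00218, edgeR) and 1.85 ± 0.42 in SH3 (adjusted p = 0.00311, edgeR). Without SC replicate 1, which held the most BIRC3 footprints of the controls, they were 2.49 and 2.54. TNFAIP3 footprints were 6.17, 6.32 and 2.84 CPM in SC, 9.26, 13.3 and 7.77 CPM in SH2 and 14.0, 9.59 and 5.61 CPM in SH3. The log2 change was 1.05 ± 0.36 in SH2 (SE; adjusted p = 0.0269, edgeR) and 0.92 ± 0.38 in SH3 (adjusted p = 0.0732, edgeR). Single libraries decided both: in SH2 it was 0.73 without SC replicate 3 (adjusted p = 0.137) and 0.78 without SH2 replicate 2 (adjusted p = 0.155), and in SH3 it was 1.2 without SC replicate 1 (adjusted p = 0.0384) 1.22 without SH3 replicate 3 (adjusted p = 0.0314) and 0.60 without SC replicate 3 (adjusted p = 0.270).

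Between the hairpins, 0 of the 10 genes were called in footprints by edgeR (5 at an unadjusted p under 0.05) and 0 by DESeq2 (2 at an unadjusted p under 0.05), where edgeR called 23.8% of all genes tested. The 5 genes were NFKB2, NFKBIE and TRAF1, lower in SH2 by -0.36, -0.40 and -0.38 on the log2 scale, and REL and NFKBIA, higher in SH2 by 0.78 and 0.40. Their edgeR adjusted p-values were above 0.05, and these differences are given as values only.

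**Figure D4:**
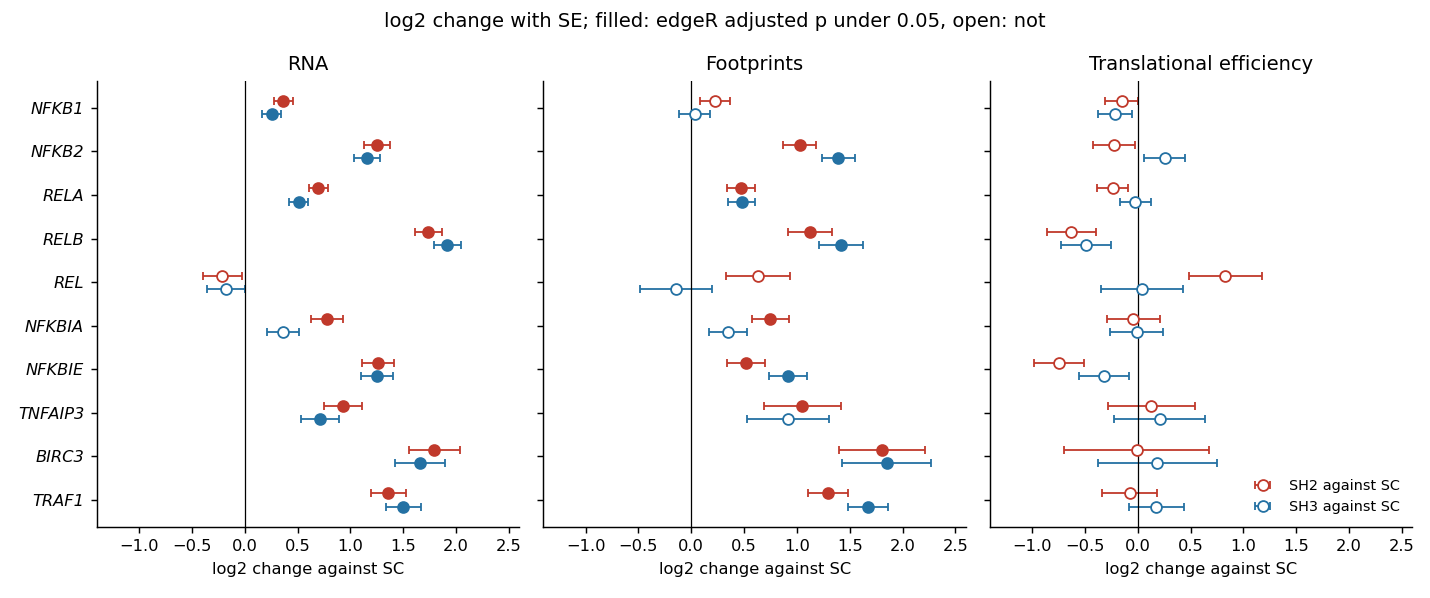
Log2 change against SC (x axis) of each gene (y axis) in RNA, footprints and translational efficiency, for SH2 (red) and SH3 (blue). Bars are the SE derived from the edgeR test, filled points have an adjusted p under 0.05 and open points do not. Most RNA and footprint points are filled and to the right of 0, all translational efficiency points are open.

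Translational efficiency, the footprint change minus the RNA change in 1 model over all 18 libraries, was called for 0 of the 10 genes in each comparison by edgeR's quasi-likelihood test. At an unadjusted p under 0.05 there were 3 in SH2 against SC, 0 in SH3 against SC and 2 in SH2 against SH3. DESeq2 called 1, 0 and 0. Of the 12531 genes tested, edgeR called 3.9% in SH2, 0.686% in SH3 and 0.016% between the hairpins, so a count of 0 of 10 was near the background. The median over the 10 genes was -0.11 in SH2 and 0.014 in SH3, beside -0.019 and -0.044 over all genes tested.

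The 3 genes with an unadjusted p under 0.05 in SH2 were NFKBIE, RELB and REL. NFKBIE changed by -0.75 ± 0.24 in SH2 (SE, log2; adjusted p = 0.0822, edgeR) and -0.32 ± 0.24 in SH3 (adjusted p = 0.638, edgeR), and DESeq2 called the SH2 change, with an adjusted p of 0.0437. When a replicate was left out, its RNA and footprint libraries were removed together, although those numbered 1 and 2 did not deviate together in SC and SH2. Without SC replicate 1 the SH2 value was -1.0 (adjusted p = 0.0231, edgeR) and without SH2 replicate 2 it was -0.98 (adjusted p = 0.0455, edgeR). Without SC replicate 3 it was -0.61, and the highest adjusted p was 0.284 (edgeR), without SH2 replicate 3. The SH2 change of NFKBIE was called in 4 of 13 alternatives. The ratio of mean footprint to mean RNA CPM of NFKBIE was 0.909 in SC, 0.535 in SH2 and 0.713 in SH3. RELB changed by -0.63 ± 0.23 in SH2 (SE, log2; adjusted p = 0.147, edgeR) and -0.49 ± 0.24 in SH3 (adjusted p = 0.401, edgeR), with ratios of 0.284 in SC, 0.186 in SH2 and 0.200 in SH3. REL changed by 0.83 ± 0.34 in SH2 (SE, log2; adjusted p = 0.195, edgeR) and 0.04 ± 0.39 in SH3 (adjusted p = 0.990, edgeR), with ratios of 0.667, 1.22 and 0.696. The other 7 genes had an unadjusted p above 0.05 against SC in both hairpins. The NFKBIA ratio was 1.24, 1.22 and 1.24 in SC, SH2 and SH3.

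The ratio of footprints to RNA differed widely already in SC. Ratios were compared for the 10454 genes with at least 10 RNA counts and 5 footprint counts in each SC library, where the median was 0.889. BIRC3 had 0.0755, and 0.297% of these genes had a lower ratio. Its SC libraries held only 5 to 29 footprint counts, the lowest being at the cut-off. Genes with fewer footprints were left out, so this share holds only among the genes compared. RELB had 0.284 (7.88% of genes lower) and TNFAIP3 0.396 (14.5% lower), while RELA had 1.18 (67.7% lower) and NFKBIA 1.24 (70.8% lower). The remaining genes were nearer the middle: REL at 0.667, NFKB1 at 0.711, NFKB2 at 0.820, TRAF1 at 0.833 and NFKBIE at 0.909. BIRC3 kept a low ratio in the hairpins, 0.0816 with SH2 and 0.0932 with SH3. Whether RNA reads were counted over whole transcripts and footprints over coding sequence is not given in the sources used here. A ratio therefore also depends on how much of the counted transcript is coding.

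**Figure D5:**
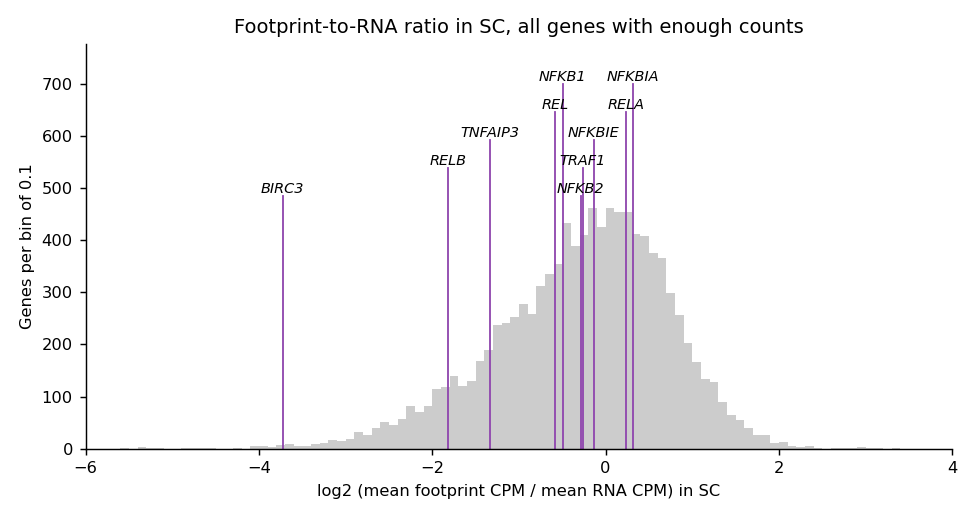
Distribution of the log2 ratio of mean footprint CPM to mean RNA CPM in SC (x axis) over 10454 genes (y axis, genes per bin of 0.1), with the 10 NF-kB genes marked by purple lines; line heights only separate the labels. BIRC3 lies far in the low tail, RELB and TNFAIP3 below most genes, and RELA and NFKBIA above the median.

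The other genes of the pathway are given by list, beside the RNA background of all genes: for SH2, 31.1% were called higher and 30.4% lower, and for SH3 these shares were 27.8% and 25.2%. Of 31 tested response genes, SH2 RNA had 21 called higher and 4 lower, and SH3 RNA 10 higher and 4 lower. The median log2 change was 0.77 in SH2 and 0.36 in SH3. The 10 of 31 that rose in SH3 are near the share of all genes. In footprints, 24 genes of this list were tested. With SH3, 4 of them rose and 5 fell, near the shares of all genes (16.9% and 19%), with a median of 0.033. With SH2, 12 rose and 4 fell, beside 21% and 23.2% of all genes, with a median of 0.58. From each list up to 3 genes per direction are named, those called in both hairpins with the largest mean change. IRF1, a transcription factor of interferon responses, stood at 28.5 ± 4.08 CPM (SD, n = 3) in SC and rose to 92.4 ± 3.65 CPM with SH2 and 68.4 ± 2.05 CPM with SH3, log2 changes of 1.70 and 1.26 (adjusted p = 3.71e-08 and 9.52e-07, edgeR). CSF1, the macrophage growth factor, rose from 62.5 ± 18.6 CPM (SD, n = 3) to 149 ± 29.3 and 235 ± 56.2, log2 changes of 1.25 and 1.91 (adjusted p = 0.000129 and 6.90e-06, edgeR). MMP9, a matrix-degrading enzyme, had 0 to 9 RNA counts in SC and 14 to 55 in the hairpins, with log2 changes of 1.86 and 2.98 (adjusted p = 0.0251 and 0.000915, edgeR); its SH2 call was lost without SC replicate 2, SC replicate 3, SH2 replicate 1 or SH2 replicate 2 (1.82, 1.27, 1.67 and 1.87), and without SC replicate 1 the changes were 2.92 and 4.04. In the other direction, IL11, a cytokine of the interleukin 6 family, fell from 78.5 ± 13.9 CPM (SD, n = 3) to 19.0 ± 3.53 and 26.4 ± 4.82, log2 changes of -2.05 and -1.57 (adjusted p = 3.68e-07 and 5.46e-06, edgeR). PLAU, the urokinase plasminogen activator, fell by 0.73 and 0.52 on the log2 scale (adjusted p = 0.00260 and 0.0236, edgeR), and its SH3 call was lost without SC replicate 1, SH3 replicate 2 or SH3 replicate 3 (-0.44, -0.50 and -0.48).

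Of 22 signalling genes tested in RNA, 10 rose and 7 fell in SH2, whereas 9 rose and 2 fell in SH3. The medians were 0.15 and 0.09. The 7 of 22 lower in SH2 are near the share of all genes. Footprints were tested for 22 genes of this list. With SH2, 6 were called up and 5 down, against 6 up and 3 down with SH3. MAP3K14, the kinase of the non-canonical arm, stood at 38.9 ± 0.685 CPM (SD, n = 3) in SC and rose to 94.7 ± 11.6 CPM with SH2 and 83.3 ± 10.9 CPM with SH3, log2 changes of 1.28 and 1.10 (adjusted p = 7.13e-07 and 5.11e-06, edgeR). SHARPIN RNA, of the linear ubiquitin ligase complex, rose by 1.04 and 0.78, and RIPK1 RNA, of the kinase of receptor complexes, by 0.86 and 0.93. Footprints of SHARPIN moved less, averaging 36.1 CPM (SC), 42.1 (SH2) and 37.7 (SH3). Those of RIPK1 averaged 46.3, 80.7 and 82.1 CPM in that order, and those of MAP3K14 19.2, 42.7 and 31.2 CPM. Lower in RNA were MAP3K7, the kinase TAK1 upstream of the canonical complex, at -0.68 and -0.43, and CHUK, at -0.39 and -0.36. CHUK encodes a catalytic kinase subunit of that complex. Among 14 inhibitors and deubiquitinases tested in RNA, 6 were called higher in each hairpin, and 3 were called lower in SH2 and 5 in SH3. Footprints were tested for 12 of this list. With SH2, 5 were called up and 2 down, against 2 up and 2 down with SH3. TNIP1 and TNIP2, partners of A20, rose by 0.99 and 0.92 in SH2 and by 0.72 and 0.76 in SH3, and BCL3, a nuclear cofactor of the NFKB1 and NFKB2 products, by 1.04 and 0.42. IRAK3, a brake on toll-like receptor signalling, fell by 0.92 and 1.31, NFKBIZ, a nuclear inhibitor family member, by 0.65 and 1.12, and NFKBID, of the same family, by 0.77 and 0.61. The NFKBID call in SH3 was lost without SC replicate 2, SH3 replicate 2 or SH3 replicate 3 (-0.51, -0.65 and -0.56).

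Of 15 receptors and ligands tested in RNA, 11 rose and 0 fell in SH2, whereas 6 rose and 4 fell in SH3. The medians were 0.71 and 0.25. Footprints were tested for 12 of this list. With SH2, 8 were called up and 0 down, against 2 up and 3 down with SH3. The changes that follow are those of RNA. LTB, a ligand of the non-canonical arm, had 5 to 6 RNA counts in SC and 10 to 27 in the hairpins, log2 changes of 1.84 and 1.66 (adjusted p = 0.00199 and 0.00575, edgeR). TLR3, a receptor for double-stranded RNA, rose by 0.81 and 1.16. IL1R1, the interleukin 1 receptor, rose by 0.87 and 0.85. The IL1R1 call in SH2 was lost without SC replicate 1, SC replicate 3, SH2 replicate 1 or SH2 replicate 2 (0.73, 0.72, 0.78 and 0.72), and that in SH3 without SC replicate 1, SC replicate 3, SH3 replicate 1 or SH3 replicate 3 (0.71, 0.70, 0.51 and 0.86). TNF, the classical inducer, had at most 3 RNA counts in any library, LTA at most 5 and TNFSF11 at most 1, and these were not tested. CD40LG is not analysed here. No test of a list as a whole was made.

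RNA profiles over the 9 libraries, centred on SC, were compared by their root mean square log2 difference, which includes the size of the change. The genes nearest to RELB were EPHA4, TFAP2C and LSR, at 0.119, 0.125 and 0.162, where the median over 12672 genes was 1.53. Nearest to BIRC3 were KCNMA1, PPP4R4 and EPHA4, at 0.246, 0.255 and 0.287, with a median of 1.48. These genes were picked for the smallest differences, so their distance from the median is no test. In the authors' deposited table of DESeq2 comparisons, 9 of the 10 NF-kB genes had an adjusted p under 0.05 and were higher in SH2 RNA, 8 in SH3 RNA, 8 in SH2 footprints and 6 in SH3 footprints, and 0 were lower.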

How the data were processed

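Gene counts from MDA-MB-231 cells were used for 9 RNA and 9 footprint libraries in 6 groups of 3. Per the file headers, the authors deposited raw whole-number counts, a normalized signal (each count divided by 1 factor per library in all 18 libraries, to within 1e-06), and log2 fold changes, p-values and adjusted p-values of their own DESeq2 comparisons. Bowtie 1.2.2 and DESeq2 are named per the submitters' processing notes. Genome build, annotation, counting tool and strand are not given in the sources used here, so reads of overlapping genes cannot be told apart. No molecular identifiers are described.

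Counts were filtered (filterByExpr), scaled (TMM) and tested with edgeR 4.0.16 (R 4.3.3), two-sided, over all 3 treatments of a library kind. Translational efficiency was an interaction over 18 libraries. DESeq2 1.42.0 (Wald test) was an alternative. Others were scaling, filter, groups fitted, replicate number as a block and leaving out each library. In translational efficiency, the RNA and the footprint library of a replicate number were left out together. Scripts were tested on simulated data. Replicates differed beyond counting noise (chi-square per degree of freedom 3.38 to 56.3). The biological coefficient of variation (common estimate) was 11.6% for RNA and 15.1% for footprints. Same-numbered libraries of SC and SH2 deviated together (r across genes 0.34 to 0.37 in RNA and 0.25 to 0.30 in footprints), so the data pair these groups by number. For other numbers r was below 0, which largely follows from centring each group on its own mean and adds no separate support. With SH3, and between RNA and footprints, some same-numbered pairs were below the 0.1 set for pairing (lowest r -0.13 in RNA, -0.12 in footprints and -0.50 between kinds).

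The 10 genes and the lists were chosen with earlier results of these data known. Named are the 10 genes and, per other list and direction, up to 3 genes called in both hairpins with the largest mean RNA change, plus the 3 list genes called in opposite directions. The deposited RD columns, identical in SH2 and SH3 for all 17017 genes, were not used. Of the blood cell markers, 1 is not reported here and was left out of the sum.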

Additional observations from a re-analysis of the deposited data

Results flagged for a closer look

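The RNA change of NFKBIA differed between the hairpins by the direct test: SH2 was above SH3 by 0.42 on the log2 scale (adjusted p = 0.0389, edgeR), with SH2 libraries at 173, 149.9 and 127 CPM and SH3 libraries at 138, 100.2 and 98.8 CPM, which overlap.

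Of the genes on the other lists, 3 were called in both hairpins in opposite directions, and they are named because of their values. IL1B, the ligand interleukin 1 beta, was at 16.1, 18.2 and 10.5 CPM of RNA in SC, 40.1, 49.3 and 29.4 CPM in SH2 and 7.68, 3.94 and 3.64 CPM in SH3. All SH2 libraries were above SC and all SH3 libraries below it, with log2 changes of 1.41 ± 0.26 and -1.55 ± 0.28 (SE) and a difference of 2.96 ± 0.28 (adjusted p = 3.80e-06, edgeR). IL1RAP, the accessory chain of its receptor, had the same order, 9.27, 13.1 and 9.60 CPM in SC, 21.7, 20.5 and 16.6 CPM in SH2 and 6.0, 3.44 and 3.45 CPM in SH3, with a difference of 2.19 ± 0.22 (SE; adjusted p = 5.13e-06, edgeR). PTX3, a secreted pattern-recognition protein, was at 33.5, 49.3 and 34.1 CPM in SC, 56.1, 58.8 and 49.4 CPM in SH2 and 24.6, 14.4 and 13.8 CPM in SH3, and differed by 1.63 ± 0.20 (SE; adjusted p = 3.64e-05, edgeR). The PTX3 rise in SH2 alone, 0.49 (adjusted p = 0.0417, edgeR), was lost without SC replicate 1, SC replicate 3 or SH2 replicates 1, 2 and 3 (0.37, 0.40, 0.47, 0.43 and 0.54). In RNA, 39.3% of all genes tested were called between the hairpins.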

How the results depend on the processing

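Of 674 values of the 10 genes under an alternative, 634 kept their direction and their side of the threshold. The 6 that reversed were not called in any setting. With 1 library left out, REL in SH3 footprints ran from -0.36 to 0.12 (0.094 without SC replicate 1, 0.12 without SH3 replicate 3), and NFKB1 from -0.036 (without SH3 replicate 2) to 0.15. With the RNA and the footprint library of 1 replicate number left out together, REL in SH3 translational efficiency ran from -0.28 (without SH3 replicate 2) to 0.31 (-0.064 without SC replicate 2, -0.084 without SC replicate 3). In RNA of SH2 against SC all calls and directions of the 10 genes held under the 13 alternatives. Of 586 RNA values of the genes named from the other lists, 561 kept both and 25 lost the call.

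Counts of called NF-kB genes moved as follows; the causes were not tested. In RNA between the hairpins, leaving out a library gave 0 to 1. In footprints between the hairpins, plain totals and a fit of only the groups compared each gave 1 (NFKB2), against 0. In translational efficiency of SH2, plain totals and DESeq2 each gave 1 (NFKBIE). Leaving out the RNA and the footprint library of a replicate number together gave 0 to 1. NFKBIA in SH3 RNA was called with plain totals (log2 0.45) and with no filter (0.37), as was TNFAIP3 in SH3 footprints with no filter (0.92). PLAU and NFKBID in SH3 RNA lost the call with plain totals (-0.43 and -0.52).

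Counts over all genes moved mostly in translational efficiency. For SH2 against SC, SH3 against SC and SH2 against SH3, the counts were 489, 86 and 2. DESeq2 gave 910, 355 and 229, a fit of only the groups compared 184, 46 and 36, and no filter 35 in the last. Leaving out the RNA and the footprint library of a replicate number together gave 110 to 555, 10 to 244 and 0 to 1. In footprints between the hairpins, leaving out a library gave 1541 to 2104. Plain totals moved the share of higher among translational efficiency calls in SH2 from 37% to 21.3%, and the median RNA change of all genes from 0.012 to 0.11 (SH2) and from 0.034 to 0.12 (SH3).

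In a fit of SC and SH2 alone with the replicate block, an alternative chosen after seeing the data because the numbers pair these groups, the calls stayed at 9 in RNA and 8 in footprints, and no call of the 10 genes changed. Over all 3 treatments, the replicate block left the calls of the 10 genes at 9 in SH2 RNA and 8 in SH2 footprints, gave 9 in SH3 RNA and 8 in SH3 footprints (adding NFKBIA, and TNFAIP3 in footprints), 2 between the hairpins in footprints (NFKB2 and NFKBIA) and 4 genes in all in translational efficiency of SH2 against SH3. With the lysate number as a block, a pairing of RNA and footprints that the deviations do not bear out in SC and SH2, translational efficiency calls over all genes were 191, 23 and 0. Low footprint counts limit the precision for REL (9 to 39 per library, SE 0.30 in SH2) and BIRC3 (5 to 52, SE 0.41).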
